A study of Bos taurus with 38 samples.

Results

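Genes that keep the oocyte of the antral follicle in meiotic arrest were examined in cattle cumulus-oocyte complexes. The list of 10 genes was drawn up by function: GPR3, ADCY3, PDE3A, NPR2, NPPC, GJA1, WEE2, CDC25B, CCNB1 and MOS. Of these, 3 could be tied to a row of the count tables, which hold 27607 genes: NPR2 (ENSBTAG00000011434), GJA1 (ENSBTAG00000001835) and CCNB1 (ENSBTAG00000014239). The other 7 genes were paired with no identifier in the sources used here and were not analysed here. All 3 genes passed the filter on low counts in oocytes and in cumulus cells.

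The samples were 19 complexes aspirated from antral follicles of abattoir ovaries and sorted by staining with brilliant cresyl blue (BCB). BCB loses its colour in oocytes that are still growing, so a blue ooplasm (BCB positive, 9 complexes) marks an oocyte that has finished growth and a colourless one (BCB negative, 10 complexes) an oocyte that has not. Every complex was split into its single oocyte and its cumulus cells, and RNA of each was sequenced, which gave 38 libraries. The labels do not say which complexes came from the same animal, so p-values reflect the spread between complexes. In cumulus libraries, which pool an uncounted number of cells, fewer cells of a type and less RNA per cell cannot be told apart.

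An oocyte stays in prophase of the first meiotic division while its cyclic AMP is high, because cyclic AMP activates protein kinase A and this holds CDK1 with cyclin B inactive. Oocyte cyclic AMP is made after GPR3 signals through the stimulatory G protein to adenylyl cyclase 3, and it is broken down by phosphodiesterase 3A. Follicle cells protect it: C-type natriuretic peptide (NPPC) acts on the guanylyl cyclase receptor NPR2 of granulosa and cumulus cells, and the cyclic GMP that NPR2 makes passes through gap junctions into the oocyte, where it inhibits phosphodiesterase 3A. WEE2 and CDC25B set the inhibitory phosphorylation of CDK1, and MOS starts the MAP kinase arm as meiosis resumes.

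Oocyte libraries held 8886070 to 29810354 counts. Cumulus libraries were smaller, with 1103200 to 8013318 counts in BCB negative and 3585944 to 10430148 counts in BCB positive complexes. The 13 mitochondrial genes took 1.17% to 17.4% of counts in BCB negative cumulus libraries and 0.966% to 2.86% in BCB positive ones. The sum of 12 matched cumulus and granulosa markers, of 14 listed, was 11475 to 31591 CPM (counts scaled to a common library size) in cumulus libraries and 69.98 to 3773 CPM in oocyte libraries. It was highest in the oocytes of complexes 72, 88, 74, 70 and 89 (3773, 1163, 961, 585 and 395 CPM), and FSHR, AMHR2, FOXL2 and FST were each at 0 in at least 1 oocyte library. The zona pellucida genes ZP2 and ZP3 summed to 2685 to 4977 CPM in oocytes and to between 0 and 89.4 CPM in cumulus libraries, with the highest values in the cumulus cells of complexes 68 and 66 (89.4 and 71.96 CPM).

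All 3 genes differed between the compartments of the complex. GJA1 and NPR2 were higher in cumulus cells and CCNB1 was higher in oocytes. At an FDR below 0.01, 1 of the 3 genes was higher and 2 were lower in oocytes, where 46.5% of the 14785 genes tested were higher, 42.3% were lower and 88.8% differed in either direction. Levels of the 3 genes are CPM scaled within a compartment unless the joint scale is named, while differences between compartments were fitted on one scale over all 38 libraries, which lowers oocytes against cumulus cells by 0.45 on the log2 scale for every gene. Levels of different genes were not compared, since no gene lengths were used.

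NPR2 encodes the receptor for C-type natriuretic peptide that makes cyclic GMP in the somatic cells of the follicle. In cumulus cells it ran from 13.8 to 103 CPM with a median of 38.7 CPM, and in oocytes from 9.01 to 22.2 CPM with a median of 17.2 CPM. The compartments overlapped, but the oocyte of a complex was below its own cumulus cells in 18 of 19 complexes on the joint scale, the exception being complex 87 (17.4 CPM in the oocyte and 15.8 CPM in the cumulus cells). The fitted log2 difference, oocyte minus cumulus, was -1.67 ± 0.17 (SE, FDR = 3.4e-12 by edgeR's quasi-likelihood test), a 3.18-fold lower level in oocytes.

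GJA1 encodes connexin 43, the main gap junction channel among granulosa and cumulus cells. It ran from 324 to 1171 CPM in cumulus cells with a median of 661 CPM, and from 15.1 to 93.9 CPM in oocytes with a median of 25.8 CPM. No oocyte library reached the lowest cumulus library. The log2 difference was -4.78 ± 0.25 (SE, FDR = 1.7e-20), a 27.6-fold lower level in oocytes, and GJA1 was lower in the oocyte in 19 of 19 complexes.

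CCNB1 encodes cyclin B1, the regulatory subunit that CDK1 needs to drive entry into M phase. Oocytes held 667 to 1384 CPM with a median of 954 CPM, and cumulus cells 7.98 to 211 CPM with a median of 40.2 CPM. Every oocyte was above every cumulus library. The log2 difference was 3.98 ± 0.23 (SE, FDR = 2.2e-19), which is 15.8-fold higher in oocytes, and it had this direction in 19 of 19 complexes. Over all genes tested, 47.8% had no overlap between the compartments.

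**Figure D1:**
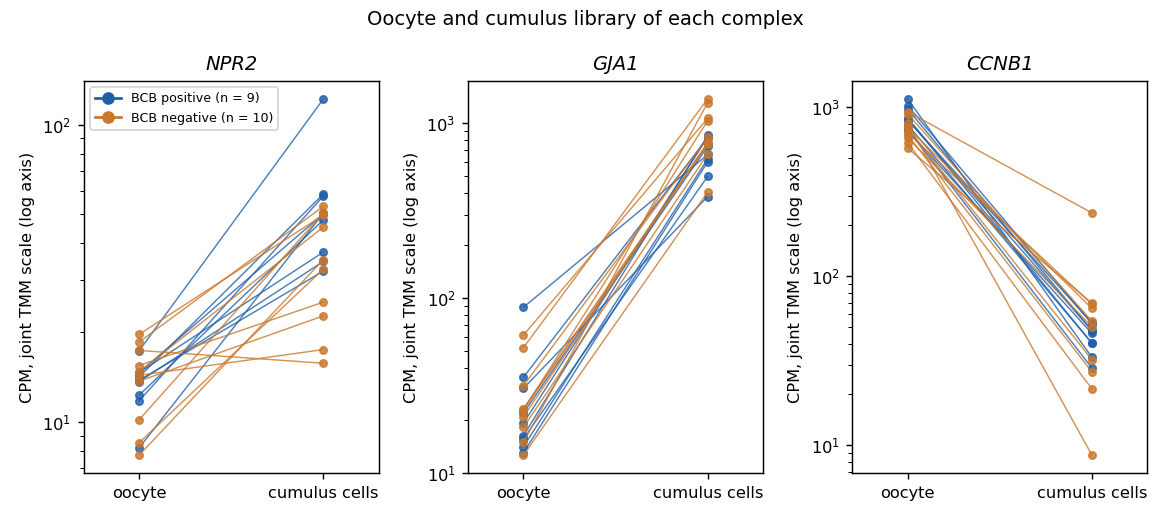
CPM of NPR2, GJA1 and CCNB1 in the oocyte and the cumulus library of each of the 19 complexes, joined by a line, on a log axis with one scale set over all 38 libraries. GJA1 and CCNB1 do not overlap between compartments, and for NPR2 only complex 87 has a higher value in the oocyte.

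The GJA1 reads of oocyte libraries were compared with the cumulus markers in the same libraries. The 5 oocytes with the highest marker sums held 35.6 to 93.9 CPM of GJA1, with complex 72 at the top, and the 13 oocytes with sums under 200 CPM held 15.1 to 39.5 CPM. In those 13 oocytes GJA1 stood at 1.13% to 3.79% of the level in their own cumulus cells, with a median of 2.72%. Over all 19 complexes GJA1 stood at a median of 3.01%, and 10 of the 12 markers had a lower median. In the 5 oocytes with high sums GJA1 stood at a median of 5.73%, and 9 of the 12 markers had a lower one. In the 13 oocytes 11 of the 12 did, but those oocytes were chosen for a low sum of the same markers, so this count is in part fixed by the choice. Without the 5 complexes the log2 difference of GJA1 was -5.33 (FDR = 1.2e-22).

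NPR2 had like ranges in oocytes with high and low marker sums. The 5 oocytes with the highest marker sums held 9.01 to 18.4 CPM of NPR2, and the 13 with the lowest sums held 9.49 to 22.2 CPM. In the 13 oocytes NPR2 stood at a median of 34.9% of the level in the surrounding cumulus cells, and over all 19 complexes at a median of 32.6%, above the highest of the 12 marker medians over those complexes (3.17%). The count behind NPR2 was 122 to 546 reads per oocyte library. The part of RNA carried over from other cells in these values was not tested.

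**Figure D2:**
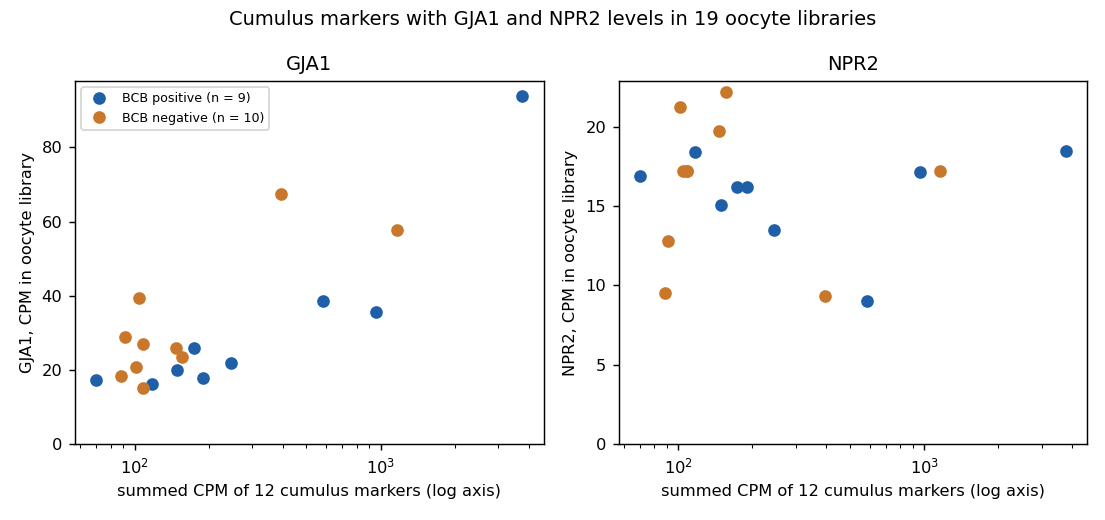
CPM of GJA1 and NPR2 in the 19 oocyte libraries against the summed CPM of 12 cumulus markers in the same library (log axis). GJA1 is highest in complex 72 (93.9 CPM), which also has the highest marker sum (3773 CPM), while NPR2 stays between 9.01 and 22.2 CPM along the whole axis.

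CCNB1 reads of cumulus libraries were likewise set beside ZP2 and ZP3. Cumulus cells of complex 68 held 211 CPM of CCNB1 and the next library 59.3 CPM. On the joint scale CCNB1 in these cumulus cells was 25.2% of that in their own oocyte, against a median of 5.13% over the 19 complexes. ZP2 and ZP3 reached at most 2.70% and 3.36% of their level in the own oocyte. Their summed level was highest in complexes 68 and 66, while for CCNB1 complex 68 alone stood apart, and the cumulus library of complex 68 had the lowest total of all. Its 211 CPM rest on 125 reads. Without complexes 66 and 68 the log2 difference of CCNB1 between compartments was 4.23 (FDR = 1.9e-22).

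Around these genes, other genes of the same pathways differed between compartments. Of 38 further genes of cyclic AMP and cyclic GMP signalling, 13 were matched to a name and tested. All 13 differed, 5 higher and 8 lower in oocytes, where 88.8% of all genes tested differed (46.5% higher and 42.3% lower), so the count lies near that of all genes. Of the 13 genes, 12 passed the filter on low counts in oocytes (all but NPR1) and 11 in cumulus cells (all but PDE3B and PDE4A). The calls of NPR1, PDE3B and PDE4A are thus in part fixed by the filter. The 13 genes had a median log2 difference of -0.66 where the median over all genes was 0.15. Scaling to library totals alone, which moved the median over all genes to 0.56, left 5 higher and 6 lower and turned the sign of PRKAR2A.

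Levels of the pathway genes between compartments are given as CPM on the joint scale. The phosphodiesterases PDE4A and PDE3B had the largest positive differences in this list. Both passed the filter on low counts in oocytes alone, where they were higher, so their calls are in part fixed by the filter. PDE4A, which hydrolyses cyclic AMP, had a median of 26.5 CPM in oocytes and 0.507 CPM in cumulus cells (log2 difference 5.44 ± 0.37, FDR = 4.8e-17). PDE3B, the paralogue of PDE3A that cyclic GMP also inhibits, had medians of 19.7 and 1.12 CPM (log2 difference 4.02 ± 0.27, FDR = 3.1e-17). PDE3B ran from 14.7 to 31.6 CPM in oocytes and reached 11.4 CPM in the highest cumulus library.

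The largest negative differences were in a subunit of protein kinase A and a subunit of soluble guanylyl cyclase. PRKAR2B, a regulatory subunit that holds the kinase inactive without cyclic AMP, ran from 359 to 716 joint-scale CPM in cumulus cells and from 0.400 to 38.1 in oocytes (log2 difference -6.71 ± 0.52, FDR = 8.9e-15). Its highest level in the 13 oocytes with low marker sums was 2.67 CPM, and its log2 difference ran from -8.48 to -6.34 under 13 alternative settings. GUCY1B1, which forms the cyclase that responds to nitric oxide, had joint-scale medians of 30.3 CPM in cumulus cells and 3.58 CPM in oocytes (log2 difference -2.89 ± 0.26, FDR = 1.8e-13). The catalytic subunit gene PRKACB and the anchoring protein gene AKAP1 were higher in oocytes, by 1.38 and 1.59 on the log2 scale, and GNAS, ADCY6 and NPR1 were lower (-1.76, -2.05 and -2.41). These 5 genes were named after their values were seen.

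Of the gap junction list of 12 genes, TJP1 was the 1 gene matched. It encodes a scaffold protein that binds connexin 43 at the membrane, and it was higher in oocytes (joint-scale medians of 145 and 47.2 CPM, log2 difference 1.58 ± 0.13, FDR = 2.0e-14). Its direction was thus opposite to that of GJA1.

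All 6 matched genes of CDK1 and cyclin B control, of 25 listed, were higher in oocytes, as CCNB1 was, against 46.5% of all genes tested. Here, as in the other lists, only genes with a name were counted, while the 46.5% covers genes with and without a name. The median log2 difference of the 6 genes was 1.95. PKMYT1, a kinase that places the inhibitory phosphates on CDK1, had joint-scale medians of 46.3 CPM in oocytes and 5.84 CPM in cumulus cells (log2 difference 2.66 ± 0.21, FDR = 8.1e-15). PLK1, which activates CDC25 phosphatases, had joint-scale medians of 401 and 70.9 CPM (log2 difference 2.46 ± 0.15, FDR = 9.0e-19). The other 4 genes, the spindle checkpoint gene MAD2L1, ENSA, CKS2 and FZR1, differed by 2.13, 1.77, 1.65 and 0.59 on the log2 scale.

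Of the 12 genes of the MOS and MAP kinase arm, a list that also holds RNA-binding proteins that control translation, 10 were tested. Of these, 4 were higher in oocytes, 2 were lower and 4 did not pass the threshold, so that 6 of 10 were called where 88.8% of all genes were. DAZL, a germ cell RNA-binding protein that promotes translation, had the largest difference (log2 6.81 ± 0.51, FDR = 2.8e-15) and ranged from 4.45 to 302 CPM among oocytes on the joint scale. It is also among the listed oocyte markers. DAZL passed the filter on low counts in oocytes alone, where it was higher, so its call is in part fixed by the filter. CPEB1, which directs cytoplasmic polyadenylation of stored messages such as those of MOS and cyclin B1, ran from 464 to 710 joint-scale CPM in oocytes and from 28.9 to 73.9 CPM in cumulus cells (log2 difference 3.59 ± 0.10, FDR = 6.8e-29). MAP2K1, the kinase that activates ERK, and CPEB4, a relative of CPEB1, were also higher (3.35 and 2.47). RPS6KA2 and MAPK3, kinases downstream of MOS, were lower in oocytes (-1.02 ± 0.25, FDR = 0.00022, and -0.68 ± 0.12, FDR = 2.2e-06). Neither passed with library totals alone (FDR = 0.018 and 0.044), where 5 genes of the list were higher and 0 lower and MAP2K2 and RPS6KA1, which had not passed, changed sign, and RPS6KA2 did not pass within complexes 65 to 74 (FDR = 0.72).

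**Figure D3:**
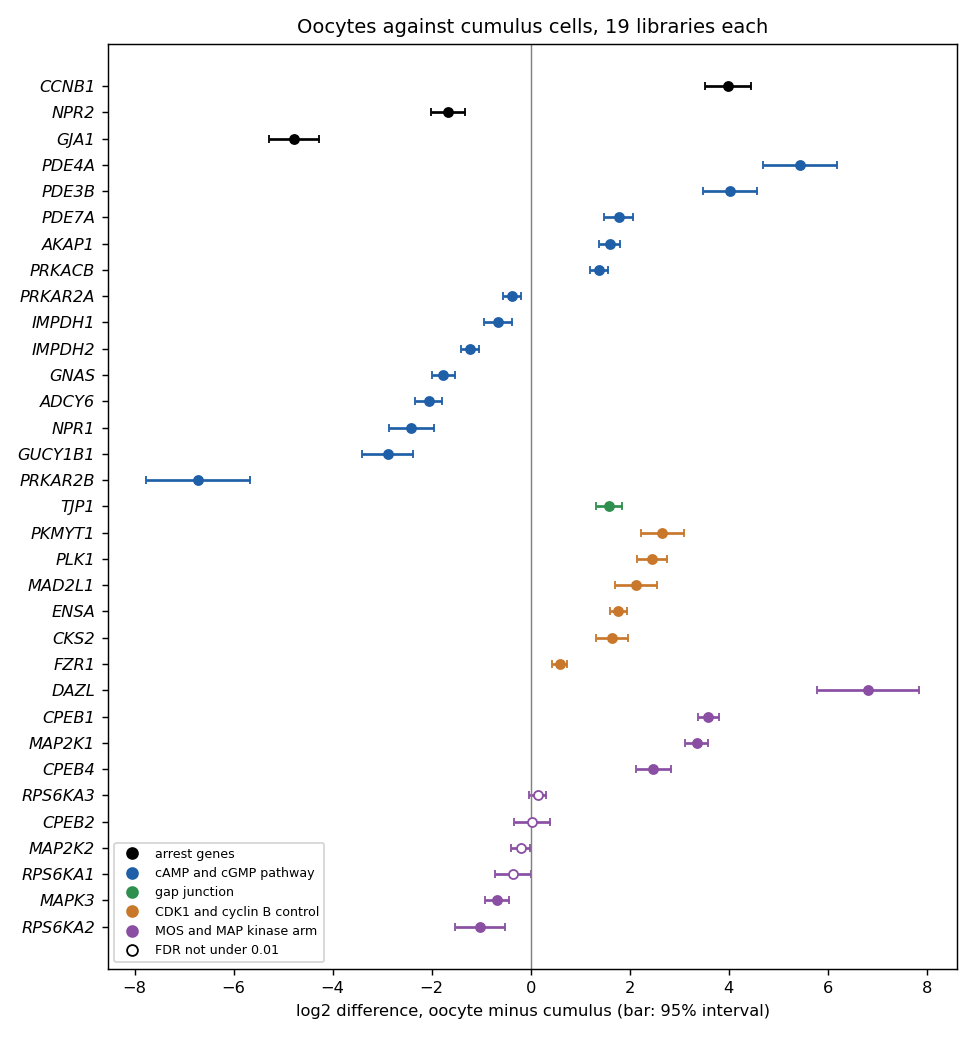
Log2 difference, oocyte minus cumulus, with 95% intervals for NPR2, GJA1, CCNB1 and the 30 matched genes of the surrounding pathways. Filled points have an FDR under 0.01. All 6 genes of CDK1 control lie to the right of 0, and the cyclic nucleotide genes run from -6.71 (PRKAR2B) to 5.44 (PDE4A).

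The second question was whether the genes differ between BCB positive and BCB negative complexes. In oocytes none of the 3 genes passed the FDR of 0.01, and neither did any other gene (0% of 12753 tested, with 711 genes at an unadjusted p under 0.05 and 1 gene called by DESeq2). In cumulus cells none of the 3 passed either, where 0.56% of 12313 genes were called. NPR2 and CCNB1 received their names from shortened lists ordered by a test of BCB class, NPR2 in cumulus cells and CCNB1 in oocytes, so their presence here depends on that contrast and their unadjusted p-values are no independent evidence. Many names of the pathway genes came in the same way, so their counts in the BCB comparisons were not read against all genes. GJA1 was named as an oocyte gene in a list of pairs co-expressed between oocyte and cumulus cells of BCB negative complexes. Its presence thus also depends on values of 1 class of these data.

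NPR2 in cumulus cells had 13.8, 28.9 and 46.1 CPM as the lowest, median and highest of the 10 BCB negative complexes, and 27.1, 42.6 and 103 CPM in the 9 BCB positive ones. The means were 30.1 ± 12.2 and 46.0 ± 22.8 CPM (SD), and the classes overlapped between 27.1 and 46.1 CPM. The log2 difference, positive minus negative, was 0.61 (95% interval 0.08 to 1.15), with an unadjusted p of 0.025 and an FDR of 0.20 by edgeR. Without complex 72, which held the 103 CPM, it was 0.37 (FDR = 0.44). With library totals alone it was 1.10 (FDR = 0.0046), on a scale where the median over all genes was 0.46, so that NPR2 lay 0.64 above that median. The likelihood-ratio test on the same scale gave 1.10 as well (FDR = 0.00088). On that scale it called 2366 genes higher and 150 lower of 12313, and the quasi-likelihood test 1629 and 103. DESeq2, which the study also required to pass, gave 0.59 for NPR2 (FDR = 0.17). By edgeR without complexes 70, 72, 74, 88 and 89 the difference of NPR2 was 0.32 (FDR = 0.64).

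In oocytes NPR2 did not separate the classes. BCB negative oocytes ran from 9.36 to 22.2 CPM with a median of 17.2, and BCB positive ones from 9.01 to 18.4 CPM with a median of 16.2. The log2 difference was -0.07 (95% interval -0.42 to 0.29, FDR = 0.97).

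GJA1 in cumulus cells ran from 368 to 1171 CPM with a median of 702 CPM in BCB negative complexes and from 324 to 711 CPM with a median of 559 CPM in BCB positive ones. The 5 highest libraries were BCB negative, and the remaining ranges overlapped. Means were 778 ± 249 and 565 ± 135 CPM (SD), and the log2 difference was -0.46 (95% interval -0.86 to -0.07, unadjusted p = 0.024, FDR = 0.19 by edgeR). With the run of complex numbers as a covariate it was -0.27 (FDR = 0.55), and without complexes 70, 72, 74, 88 and 89 it was -0.29 (FDR = 0.59). At an unadjusted p under 0.05, 18.7% of all genes were found in cumulus cells, and NPR2 and GJA1 were 2 of the 3 genes examined. With library totals alone the difference of GJA1 was -0.00062, which is 0.46 below the median over all genes on that scale.

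In oocytes GJA1 had medians of 26.5 CPM in BCB negative and 21.9 CPM in BCB positive complexes. Each class had a tail of high libraries, with complexes 89 and 88 at 67.3 and 57.7 CPM among the negative and complex 72 at 93.9 CPM among the positive. The log2 difference was -0.02 (95% interval -0.72 to 0.69, FDR = 0.997 by edgeR). Without complex 72 it was -0.42 (95% interval -0.98 to 0.14, FDR = 0.88), while it was 0.38 with the run of complex numbers as a covariate (FDR = 0.71) and 0.47 within complexes 65 to 74 (FDR = 0.62).

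CCNB1 in oocytes ran from 667 to 1183 CPM with a median of 829 CPM in BCB negative complexes and from 804 to 1384 CPM with a median of 964 CPM in BCB positive ones. The means of 874 ± 179 and 1033 ± 195 CPM (SD) differed by 0.24 on the log2 scale (95% interval -0.01 to 0.50, unadjusted p = 0.063, FDR = 0.89 by edgeR). The level moved with the run of complex numbers. The 6 complexes numbered 86 to 91, all BCB negative, had 667 to 851 CPM, and the 3 BCB positive ones numbered 6 to 24 had 1116 to 1384 CPM. These sets differ in class as well as in run. The 1 BCB negative oocyte numbered 6 to 24, of complex 6, had 970 CPM, below the 3 positive ones of its run.

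Within complexes 65 to 74, the only run with more than 1 complex of each class, the order of CCNB1 was the reverse. The 3 BCB negative oocytes had 954, 1121 and 1183 CPM, and the 6 BCB positive ones ran from 804 to 1015 CPM. The log2 difference there was -0.23 (95% interval -0.45 to -0.01, FDR = 0.23), and with the run as a covariate it was -0.08 (FDR = 0.77). For complexes 86 to 91 the run and the class cannot be told apart.

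CCNB1 in cumulus cells ran from 7.98 to 211 CPM with a median of 44.9 CPM in BCB negative complexes and from 24.2 to 44.7 CPM with a median of 38.9 CPM in BCB positive ones. The BCB negative libraries reached both above and below all the BCB positive ones. The coefficients of variation were 104%, with the 211 CPM of complex 68 included, and 19.4%. The log2 difference of CCNB1 was -0.51 (95% interval -1.33 to 0.31, FDR = 0.50). Within complexes 65 to 74 it was -1.49 (95% interval -2.36 to -0.63, FDR = 0.10), and without complex 68 over all runs it was -0.06 (FDR = 0.93). ZP2 and ZP3 summed to 11.2 to 89.4 CPM in the 3 BCB negative cumulus libraries of that run and to 0.0762 to 1.23 CPM in the 6 BCB positive ones.

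**Figure D4:**
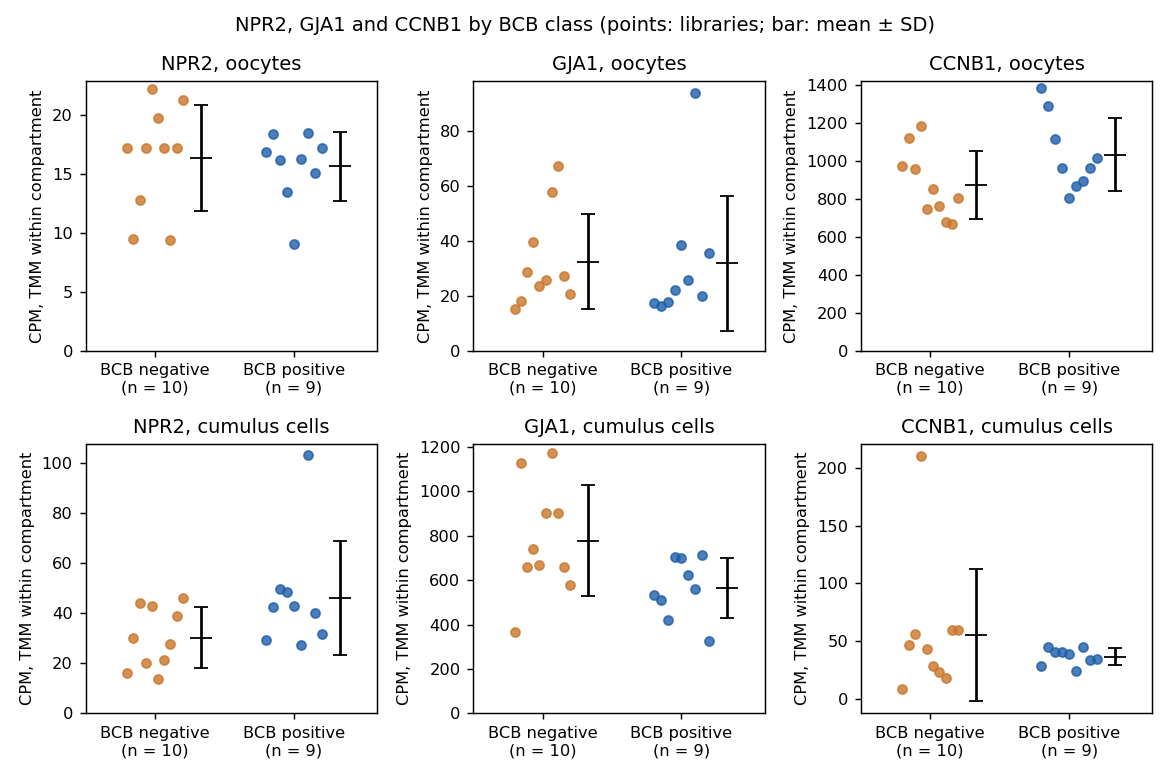
CPM of NPR2, GJA1 and CCNB1 in each oocyte library (top) and cumulus library (bottom) by BCB class, with the mean and SD at the right of each class. The classes overlap in all 6 panels, and the single points at 103 CPM (NPR2, complex 72) and 211 CPM (CCNB1, complex 68) stand apart in the cumulus panels.

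A difference of the BCB effect between compartments, oocyte effect minus cumulus effect, was tested as an interaction. None of the 3 genes passed, where 1.7% of 14785 genes did. The values were -0.72 for NPR2 (FDR = 0.24), 0.44 for GJA1 (FDR = 0.66) and 0.73 for CCNB1 (FDR = 0.37). Without complex 72 the value of GJA1 was -0.0093 (FDR = 0.999), and without complex 68 that of CCNB1 was 0.31 (FDR = 0.65). With a replicate block by complex they were -0.67, 0.26 and 0.38 (FDR = 0.33, 0.80 and 0.69), and the number of genes called over the whole table went from 251 to 2.

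**Figure D5:**
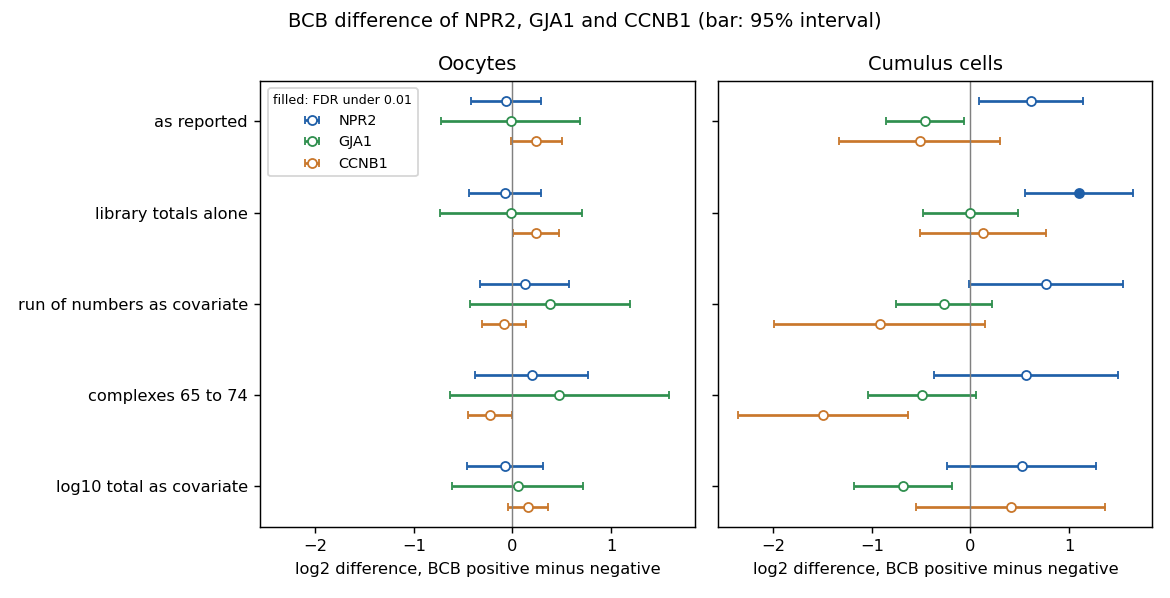
Log2 difference, BCB positive minus BCB negative, with 95% intervals for NPR2, GJA1 and CCNB1 in oocytes and in cumulus cells under 5 settings of the fit. The 1 filled point is NPR2 in cumulus cells with library totals alone (1.10). In oocytes CCNB1 changes from 0.24 to -0.23 when only complexes 65 to 74 are used.

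Among the pathway genes, 1 of 6 genes of CDK1 control passed in cumulus cells, where 0.56% of 12313 genes tested did. None of the other lists had a gene past the threshold in either compartment. FZR1, the CDH1 activator of the anaphase-promoting complex that keeps cyclin B1 low during arrest, ran from 18.1 to 26.9 CPM in BCB negative cumulus libraries and from 26.1 to 39.0 CPM in BCB positive ones. The classes overlapped by less than 1 CPM. The log2 difference was 0.62 ± 0.13 (SE, FDR = 0.0090), and in oocytes it was 0.06 (FDR = 0.96). The interaction was -0.60 (FDR = 0.014), which does not pass 0.01. The call in cumulus cells was lost under 9 of 14 alternatives, with an FDR of 0.011 to 0.35, among them complexes 65 to 74 alone (0.35), the run or the library total as a covariate (0.090 and 0.21) and the fit without complex 72 (0.024). The log2 difference under these 4 was 0.48, 0.56, 0.61 and 0.60. FZR1 also received its name through the list ordered by this contrast, so the 1 of 6 cannot be read against the share of all genes.

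NPR1, the receptor guanylyl cyclase for atrial natriuretic peptide and a relative of NPR2, was looked at after its values were seen. It had a median of 7.09 CPM in BCB negative and 2.30 CPM in BCB positive cumulus libraries. The log2 difference of -1.60 ± 0.37 (SE) had an FDR of 0.021 by edgeR and 0.00079 by DESeq2, and its sign was opposite to that of NPR2. With the log10 library total as a covariate it was -0.60 (FDR = 0.68 by edgeR). NPR1 also was named through the list ordered by this contrast.

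Genes whose level across libraries was most like that of each gene were sought by Spearman's rho among genes with a name, over the 19 libraries of the compartment where the gene was higher. For NPR2 in cumulus cells they were POLH, a translesion DNA polymerase (rho 0.89), and CENPI, a kinetochore protein (0.86). For GJA1 in cumulus cells they were COPB1, of the COPI vesicle coat (0.78), and NME7, of the nucleoside diphosphate kinase family (0.78). For CCNB1 in oocytes they were GLO1, the glyoxalase (0.93), and ORC4, of the origin recognition complex (0.92). The points share their library, its depth and the BCB classes, and the coefficients are a description.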

How the data were processed

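The deposited values are raw counts per Ensembl gene. Per the study's methods and the submitters' processing notes, the authors trimmed paired reads, aligned them to ARS-UCD1.2 with HISAT2 2.1.0, removed duplicates and counted with featureCounts 1.6.0. Oocyte and cumulus tables were joined on 27607 identifiers. All 38 columns were used, and no 2 libraries held identical counts. Symbols, without values, came from the supplementary tables (4934 identifiers), of which those of the BCB tests are shortened.

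Genes with CPM above 2 in at least 9 of 19 libraries were kept, 12753 in oocytes, 12313 in cumulus cells and 14785 in either. edgeR 4.0.16 (R 4.3.3) gave TMM factors and robust quasi-likelihood tests of BCB class in each compartment, and of compartment and interaction over 38 libraries, at an FDR of 0.01. A difference's SE came from its F value. Scripts were tested on simulated data. Counting error is larger in the small cumulus libraries.

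Members and lists were chosen with earlier results of these data known. Named were all 10 genes, list genes past the FDR in a BCB comparison, the 2 largest positive and negative compartment differences per list, and the 2 genes most like each member (log2 CPM plus 0.5). Cumulus marker sums of 200 and 390 CPM divide oocytes only for description, chosen after the values were seen. Complex numbers in the labels pair an oocyte with its cumulus cells. Deviations from group means over 10281 genes correlated by -0.015 to 0.21 within complexes, above 0.1 in 5 of 19. The fit had no replicate block, which was an alternative. Others were DESeq2 1.42.0, other scalings, filters and covariates, and left-out complexes.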

Additional observations from a re-analysis of the deposited data

Results flagged for a closer look

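Within the 4 groups, the highest library stood apart from the rest in 3 of 12 combinations of gene and group by Dixon's criterion. Chance meets it in about 1 in 20 groups if values are normally distributed, which was not tested for these CPM. NPR2 in BCB positive cumulus cells was 103 CPM in complex 72, with the next library at 49.4 CPM. GJA1 in BCB positive oocytes was 93.9 CPM, also in complex 72, with the next at 38.7 CPM, and that oocyte library had the highest sum of cumulus markers (3773 CPM). CCNB1 in BCB negative cumulus cells was 211 CPM in complex 68, with the next at 59.3 CPM, and that library had the lowest total (1103200 counts) and the highest sum of ZP2 and ZP3 (89.4 CPM). The part of carried-over RNA or of depth in these values was not tested.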

How the results depend on the processing

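The differences of NPR2, GJA1 and CCNB1 between compartments kept their direction and call under all 13 alternatives, at log2 values of -1.99 to -1.25, -5.33 to -4.40 and 3.58 to 4.48. The replicate block by complex changed no call of these genes. The number of genes called between compartments also stayed within 1.5 times its value of 13127.

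The number of genes called by BCB class in cumulus cells, 69, was 360 at an FDR of 0.05, 365 with DESeq2, 1732 with library totals alone (94.1% of them higher in BCB positive complexes, against 7.25%), 164 without a filter, 115 with the run of complex numbers as a covariate, 2 with the log10 library total as a covariate and 214 for genes that DESeq2 and a likelihood-ratio test on library totals both called. Leaving out complexes, chosen after seeing the data, gave 7 without complex 72, 29 without complex 68 and 10 without complexes 66 and 68. In oocytes DESeq2 called 1 gene in place of 0. The interaction count of 251 was 2 with the replicate block by complex, 678 at an FDR of 0.05, 744 with DESeq2, 644 with library totals alone (34.2% positive, against 97.2%), 710 with the run as a covariate, 527 within complexes 65 to 74, 139 without complex 72, 164 without complex 68 and 98 without complexes 66 and 68. The cause of these moves was not tested.

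In oocytes the BCB difference turned its sign for NPR2 with the run as a covariate (0.13) and within complexes 65 to 74 (0.19). It turned for GJA1 with the run (0.38), within complexes 65 to 74 (0.47), with the log10 total (0.051), without complex 68 (0.023) and without complexes 66 and 68 (0.0053), and for CCNB1 with the run (-0.085) and within complexes 65 to 74 (-0.23). In cumulus cells the sign of CCNB1 turned with library totals alone (0.13), with the log10 total (0.41), by the likelihood-ratio test (0.12) and without complexes 66 and 68 (0.034). The interaction of GJA1 turned with library totals alone (-0.012), without complex 72 (-0.0093) and without complexes 70, 72, 74, 88 and 89 (-0.076). None of these values passed the FDR of 0.01.

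NPR2 rested on 12 to 1141 reads per cumulus library and CCNB1 on 11 to 495, so counting error is largest in the small BCB negative cumulus libraries.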

Other observations

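Genes listed as markers of cells outside the complex were counted in both compartments. VWF, the von Willebrand factor made by endothelium, had a median of 39.6 CPM in oocytes and 2.01 CPM in cumulus cells on the joint scale (log2 difference 3.79 ± 0.33, FDR = 1.7e-13 by edgeR). COL1A2, a fibrillar collagen chain of stroma, had medians of 8.95 and 0.621 CPM (log2 difference 2.79 ± 0.42, FDR = 8.5e-08). It passed the filter on low counts in oocytes alone, where it was higher. HBA, a globin of red blood cells, was higher in cumulus cells, with medians of 35.8 and 10.6 CPM (log2 difference -2.25 ± 0.62, FDR = 0.0011), and 1 cumulus library reached 569 CPM. This call was lost with a replicate block by complex (-1.51, FDR = 0.011), within complexes 65 to 74 (FDR = 0.026) and without complexes 66 and 68 (FDR = 0.011). Of 9 blood and endothelial markers 2 were matched, and of 8 theca and stroma markers 1.

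The markers of the 2 compartments followed their labels. All 4 matched oocyte markers, of 14 listed, were higher in oocytes, against 46.5% of all genes tested, with ZP2 and ZP3 at log2 differences of 10.68 ± 0.58 and 10.13 ± 0.59. All 12 cumulus and granulosa markers were lower in oocytes, against 42.3% of all genes tested. INHBA and FSHR had the largest differences (-6.77 ± 0.87 and -6.63 ± 0.65). Under the 13 alternatives these ran from -9.60 to -6.35 and from -9.13 to -5.98. Of the 4 oocyte markers 1 passed the filter on low counts in cumulus cells, and of the 12 cumulus markers 9 passed it in oocytes. The calls of the rest are in part fixed by the filter.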
